A study of Apis mellifera with 8 samples.

Results

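The genes described here are regulators of gene expression that the study listed among the genes with stronger histone marks in worker (96hW) than in queen (96hQ) larval heads of the honey bee. They were read from the gene ontology list of the worker chromatin differences (the worker chromatin list), where 238 genes stood under regulation of gene expression. The 128 genes that were also under nervous system development were left out, and the neuron projection morphogenesis term of the study's list of worker transcripts removed none beyond those. This left 110 genes, of 9161 genes with a measured transcript in the series. Of the 110, 92 were paired with 306 of the transcripts measured, 18 were not paired and were not analysed here, and 91 had at least 5 estimated counts in at least 4 of the 8 libraries and were tested. The remaining gene, LOC726458, had 7 estimated counts in 1 queen head, 14 in 1 worker head and 0 in the other heads.

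RNA was measured by poly(A)-selected, strand-specific sequencing in the heads of female *Apis mellifera* larvae at 96 h after hatching, 4 queens and 4 workers, with each library made from 1 head. Queen larvae had been grafted into cups primed with royal jelly and worker larvae were marked and collected on hive frames, so caste and rearing cannot be told apart. The libraries held 22057972 to 23344818 estimated counts each in 96hQ and 19139730 to 21848474 each in 96hW, of which 78.1% to 81.0% fell on transcripts paired with a gene. Normalized counts are sums per gene after scaling between libraries, log2 fold changes are 96hQ over 96hW, and p-values are from edgeR's quasi-likelihood test, adjusted over all 8151 genes tested, with 0.01 as the threshold.

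Regulation of gene expression is carried by proteins that bind DNA at promoters and enhancers, by enzymes that modify histones or DNA, and by proteins that splice, stabilise or translate RNA. In insect larvae these layers act downstream of ecdysone and juvenile hormone, which time moults and are known for their part in caste development in bees. The gene ontology terms used by the study were transferred to the bee from *Drosophila melanogaster*, so the term of a gene without a name is that of its fly counterpart. Of the 110 genes, 92 were also under regulation of RNA metabolic process, 64 under developmental process and 33 under epithelium development. They lay on 16 chromosomes of the reference, and 3 pairs were direct neighbours.

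Most of the regulators differed little between castes. Of the 91 tested, 5 differed between castes (5.49%, against 8.61% of all genes tested). LOC724704 was higher in 96hQ, where 5.21% of all genes were higher. LOC411534, LOC726230, LOC552145 and LOC727238 were higher in 96hW, where 3.4% of all genes were higher. These counts moved with single libraries, and so did the calls over all genes. Over all genes 702 were called with all heads, 774 without 96hQ replicate 3 and 142 without 96hW replicate 3. With 1 library left out, the count higher in 96hW was 7 without 96hQ replicate 3, 2 without 96hQ replicate 1, 96hQ replicate 2 or 96hW replicate 2, and 1 without any other, and the count higher in 96hQ was 0 without 96hQ replicate 4 or 96hW replicate 2, 3 or 4 and 1 otherwise. DESeq2 at the same threshold called 2 regulators higher in 96hQ and 13 higher in 96hW, where it called 12.8% and 10.6% of all genes. On log2(TPM + 1), limma called 0 regulators higher in 96hQ and 5 higher in 96hW, where it called 1.78% of all genes. Of the 5 genes named above, 2 passed there (LOC411534 and LOC726230). With library size as the only scaling, 3 of the 5 passed, without LOC552145 and LOC727238. No regulator had a fitted difference of more than 2-fold, while 8.67% of all genes had one, and the median size of the log2 fold change was 0.14 over the regulators and 0.25 over all genes. For 65 regulators (71.4%) the whole 95% interval of the difference lay within 1.5-fold in either direction, against 52.7% of all genes, so a caste difference of 1.5-fold or more was outside the interval for most of them. These shares are descriptions and were not tested against other genes. The regulators had a median of 49.3 TPM and 3999 bases, against 27.2 TPM and 1939 bases over all genes. Longer and more abundant transcripts give more counts, and more counts give narrower intervals. The part of this in the shares was not tested.

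**Figure D1:**
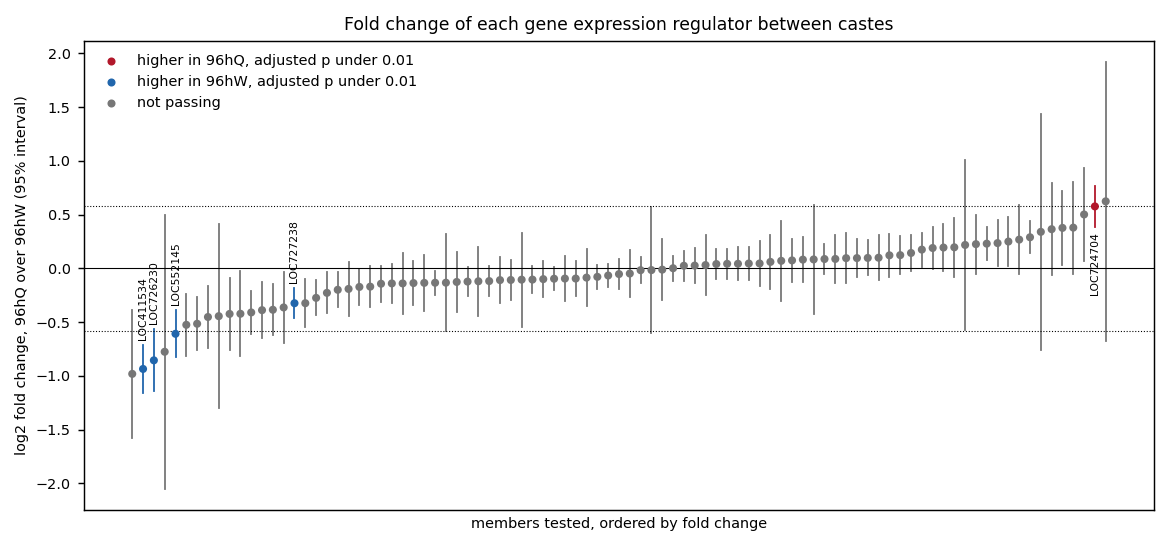
Log2 fold change of the 91 regulators tested, 96hQ over 96hW, ordered from the lowest to the highest, with 95% intervals from edgeR. Red and blue mark the 5 genes that passed an adjusted p of 0.01 and dotted lines mark 1.5-fold. Most intervals lie between the dotted lines.

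The median log2 fold change of the regulators was -0.053 (quartiles -0.16 and 0.10) and that of all genes was 0.00, with 50 regulators negative and 41 positive. It was negative under each scaling between libraries and close to 0. With 1 library left out it was -0.092 without 96hQ replicate 3, -0.022 without 96hQ replicate 2, -0.028 without 96hQ replicate 1 and -0.025 without 96hW replicate 1, and with library size as the only scaling it was -0.087. On log2(TPM + 1) it was -0.20, beside -0.14 over all genes, and it turned positive with the trend of fold change on transcript length removed, at 0.058, beside -0.01 over all genes. The regulators had long transcripts, with a median of 3999 bases against 1939 over all genes, and across the 8151 genes longer transcripts had lower fold changes (Spearman's rho = -0.24, across genes of the same libraries). The part of length in the differences of single genes was not tested.

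All heads of one caste lay above all heads of the other in 23 regulators (25.3%, against 31.9% of all genes). In 6 of them the queen heads were higher (17.2% of all genes) and in 17 the worker heads (14.7% of all genes). At an unadjusted p under 0.05 there were 8 regulators higher in 96hQ and 20 higher in 96hW, together 30.8% against 41.0% of all genes. A further 11 regulators had an adjusted p between 0.01 and 0.05, 9 of them with a negative fold change and 2 with a positive one. In all, 16 regulators (17.6%) were under 0.05, against 26.9% of all genes.

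Markers of cell types and tissues were also summed per head. The sums for neuron, cuticle and royal jelly proteins did not overlap between castes. Those for fat body, silk gland and muscle overlapped. The 9 neuron markers measured of 14 listed summed to 78.4 to 133.0 TPM in queen heads and 181.5 to 235.8 TPM in worker heads, and each was detected in every head. The 24 cuticle genes summed to between 67034 and 122744 TPM in queen heads and between 23779 and 38789 TPM in worker heads. The 6 fat body markers measured of 7 summed to 7778 to 19027 TPM in queen heads and 53421 to 62769 TPM in 3 worker heads, with 7623 TPM in 96hW replicate 1. The part of tissue composition in the differences of regulators was not tested, and in RNA of whole heads fewer cells of a type and less RNA per cell cannot be told apart.

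LOC411534, listed under developmental process and signaling, had the smallest p of the regulators. It had 747, 1034, 961 and 876 normalized counts in the 4 queen heads, against 1734, 1756, 1677 and 1750 in the 4 worker heads. The worker heads lay close together and all above the queen heads. The log2 fold change was -0.94 (SE 0.10, adjusted p = 0.0013 from edgeR). It was the only regulator that passed with any 1 of the 8 libraries left out. By length it was a gene of modest level, at 15.9 ± 3.1 TPM in 96hQ and 31.9 ± 1.7 TPM in 96hW (SD, n = 4 each).

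LOC726230, listed under signaling and response to external stimulus, had 261, 230, 337 and 304 normalized counts in queen heads, against 560, 491, 492 and 505 in worker heads. No queen head reached the level of a worker head. Between castes its log2 fold change was -0.86 (SE 0.13, adjusted p = 0.0038 from edgeR), and the gene passed in 3 of the 8 fits with 1 library left out.

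LOC552145, listed under RNA metabolic process but not under developmental process, had 633, 536, 615 and 652 normalized counts in queen heads, against 989, 805, 1027 and 892 in worker heads. The castes did not overlap. The difference was -0.61 on the log2 scale (SE 0.10, adjusted p = 0.0048 from edgeR), and it passed in 2 of the 8 fits with 1 library left out.

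LOC727238, listed under developmental process, had 3646, 3592, 3504 and 3223 normalized counts in queen heads, against 4425, 4090, 4443 and 4525 in worker heads. Its difference was small and its heads varied little. On the log2 scale the fold change was -0.32 (SE 0.06, adjusted p = 0.0087 from edgeR). It passed in none of the 8 fits with 1 library left out, where its adjusted p from edgeR lay between 0.0123 and 0.0295, and with the trend on length removed its fold change was -0.08.

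LOC724704 was the regulator higher in 96hQ. It was under developmental process and epithelium development in the worker chromatin list and under translation and RNA processing in the study's list of queen transcripts. It had 3035, 2923, 3696 and 3084 normalized counts in queen heads, against 2207, 2194, 2130 and 2008 in worker heads. The lowest queen head exceeded the highest worker head. In log2 units the fold change was 0.58 (SE 0.08, adjusted p = 0.0035 from edgeR), and it passed in 4 of the 8 fits with 1 library left out.

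**Figure D2:**
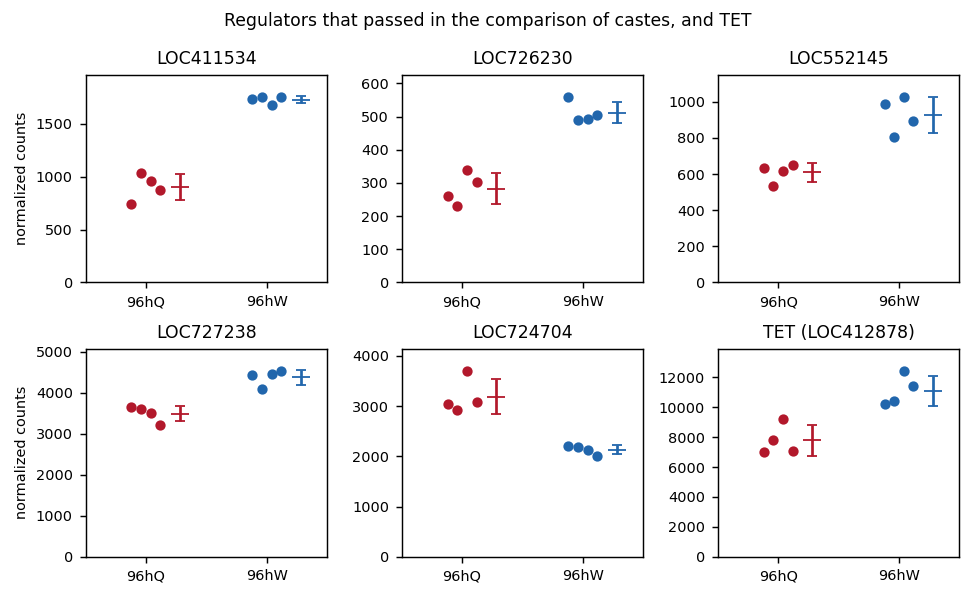
Normalized counts of the 5 regulators that passed an adjusted p of 0.01 in edgeR, and of TET, in each of 4 queen heads (red, left) and 4 worker heads (blue, right), with the mean and SD beside the points. The castes do not overlap in any of the 6 panels, and only LOC724704 is higher in 96hQ.

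These calls were not independent of the study's own selection. All 5 genes stood in lists that the study made from the RNA of the same libraries, either the lists of queen or worker transcripts or the combined worker list, of genes with both stronger marks and more transcript in workers. Of the 77 regulators tested that were in none of these lists, 0 passed 0.01 in edgeR and 15 had an unadjusted p under 0.05, of which 7 were positive and 8 negative. Over all genes 8.61% passed and 41.0% had such a p, against 19.5% of the 77. Leaving out genes listed from the same RNA lowers these counts in itself. Among those 77 regulators DESeq2, at the same threshold, called LOC408328 higher in 96hQ and Dop1, Err and LOC411048 higher in 96hW. Of all genes DESeq2 called 12.8% higher in 96hQ and 10.6% higher in 96hW.

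Of the 16 regulators in the combined worker list, 12 were tested. All 12 had negative fold changes, with a median log2 fold change of -0.35, and 3 of them passed (LOC411534, LOC726230 and LOC727238). In 10 of the 12 the castes did not overlap. Over all genes, 8.61% passed and 31.9% did not overlap. The list was made from the RNA of the same heads, which favours both the direction and the separation of castes, and the values only describe its size. The fold changes ran from -0.94 in LOC411534 to -0.08 in LOC725061.

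TET (LOC412878), the enzyme that oxidises methylated cytosine in DNA, was in that list. It had 7017, 7822, 9187 and 7079 normalized counts in queen heads, against 10242, 10409, 12414 and 11385 in worker heads. No queen head reached a worker head, and 96hQ replicate 3 came closest. Summed over transcripts, its log2 fold change was -0.52 (SE 0.11, adjusted p = 0.0121 from edgeR), which did not pass 0.01. It passed in edgeR with upper-quartile size factors (adjusted p = 0.0073) and library size only (0.0090). DESeq2 (adjusted p = 9.4e-05) and limma on log2(TPM + 1) (0.0062) also passed it. With RLE size factors, limma-voom, other filters, unrounded counts or a replicate block its adjusted p was 0.0109 to 0.0211. The study reported its longer transcript as higher in workers. With 1 library left out the adjusted p from edgeR was 0.0045 without 96hQ replicate 3 and 0.0197 to 0.0359 otherwise, and with the trend on length removed the fold change was -0.25.

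Of the other regulators just outside the threshold, LOC413125 had 383, 398, 476 and 416 normalized counts in queen heads, against 585, 506, 550 and 580 in worker heads. Its log2 fold change was -0.41 (SE 0.09, adjusted p = 0.0135 from edgeR). LOC409337 had 2329, 1921, 2934 and 2145 normalized counts in queen heads, against 3112, 3287, 3599 and 3425 in worker heads, and its log2 fold change was -0.52 (SE 0.13; edgeR adjusted p = 0.0198). Both were in the combined worker list and neither overlapped between castes. Without 96hQ replicate 3, the highest queen head in each, the adjusted p from edgeR was 0.0063 for LOC413125 and 0.0030 for LOC409337. Without any other single library it was 0.0244 to 0.0411 for LOC413125 and 0.0317 to 0.0558 for LOC409337. LOC726469, from the same list, did not overlap either, and its log2 difference was -0.27 (SE 0.07; edgeR adjusted p = 0.0259). DESeq2 called LOC413125, LOC409337 and LOC726469, with adjusted p of 0.00040, 0.0011 and 0.0048. LOC409337 also passed with library size only (adjusted p = 0.0058 from edgeR) and on log2(TPM + 1) (adjusted p = 0.0042 from limma). LOC413125 and LOC726469 passed in neither of these.

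LOC408328 had the smallest p among the regulators with a positive fold change that did not pass. It had 13237, 13020, 15009 and 13446 normalized counts in queen heads, against 11499, 11191, 10852 and 11212 in worker heads. In these counts the castes were apart, by 0.29 on the log2 scale (SE 0.06; edgeR adjusted p = 0.0150). In TPM they overlapped, and the difference on log2(TPM + 1) was 0.13 (adjusted p = 0.318 from limma). It was the regulator with the second highest level, at 454 ± 24 TPM in 96hQ and 415 ± 33 TPM in 96hW (SD, n = 4 each), and was listed under developmental process and epithelium development.

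**Figure D3:**
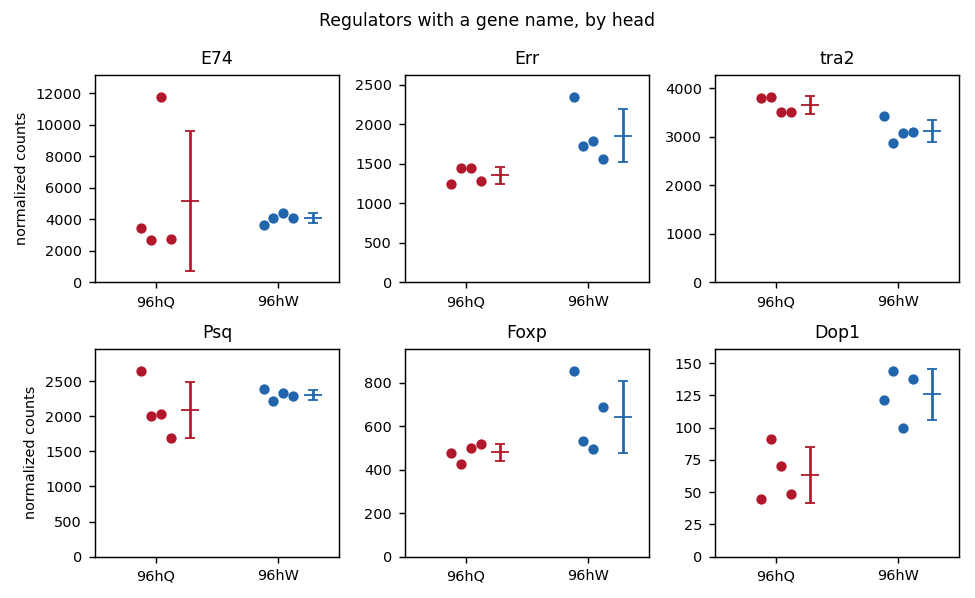
Normalized counts of the 6 regulators with a gene name, in each of 4 queen heads (red, left) and 4 worker heads (blue, right), with the mean and SD beside the points. E74 has 1 queen head at 11786, far above the other 7 heads, and in Dop1 and Err every worker head is above every queen head.

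Only 6 regulators carried a gene name in the reference. None of them passed 0.01 in edgeR. E74, an Ets-domain transcription factor that in *Drosophila* is induced early by ecdysone, was among the 3 regulators with the largest spread within castes. It had 3426, 2699, 11786 and 2734 normalized counts in queen heads, against 3664, 4109, 4441 and 4087 in worker heads. A single queen head, replicate 3, lay above all workers and the other 3 queen heads below them. The log2 fold change was 0.34 (SE 0.48, adjusted p = 0.627 from edgeR). It turned to -0.46 (adjusted p = 0.0184 from edgeR) without 96hQ replicate 3, and to -0.20 on log2(TPM + 1) with all heads. The same head had the highest cuticle sum, 122744 TPM, and the part of its stage or tissue was not tested.

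The transcripts of E74 did not move together in that head. XM_006558378 had 376, 385, 5604 and 471 normalized counts in queen heads, against 133, 253, 132 and 265 in worker heads, so that all queen heads were above all worker heads. XM_006558379, the most abundant form, had 2112, 1634, 1969 and 1492 normalized counts in queen heads, against 2332, 2585, 2899 and 2580 in worker heads, so that all worker heads were above. XM_006558374 had 565, 479, 0 and 396 normalized counts in queen heads, against 614, 664, 856 and 711 in worker heads. In 96hQ replicate 3 the first form was far above its level in the other heads and the last was at 0. Counts per transcript rest on how reads were divided among similar transcripts, and that error was not measured here. The log2 fold changes were 3.12 (SE 1.02) for XM_006558378 and -0.53 (SE 0.13) for XM_006558379, with adjusted p of 0.108 and 0.0443 from edgeR over all transcripts, so neither passed.

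Err, the estrogen-related nuclear receptor that in *Drosophila* larvae directs carbohydrate metabolism, had 1246, 1453, 1445 and 1286 normalized counts in queen heads, against 2347, 1726, 1793 and 1563 in worker heads. The worker heads were all above the queen heads, with replicate 1 highest. Between castes the log2 fold change was -0.45 (SE 0.13, adjusted p = 0.0333 from edgeR). Of its 10 paired transcripts, XM_006567599 had 233, 87.3, 32.4 and 153 normalized counts in queen heads, against 542, 583, 429 and 474 in worker heads. It made up 6.74% ± 5.13 of the gene's TPM in 96hQ and 20.3% ± 4.1 in 96hW (SD, n = 4 each), with an adjusted p of 0.0555 from edgeR.

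Dop1, a dopamine receptor, had 44.4, 91.3, 70.4 and 48.2 normalized counts in queen heads, against 121, 144, 99.8 and 138 in worker heads. It had the lowest fold change of the regulators, -0.98 (SE 0.26, adjusted p = 0.0275 from edgeR), with no overlap between castes, at a low level of 2.05 ± 0.77 TPM in 96hQ and 4.01 ± 0.57 TPM in 96hW (SD, n = 4 each). The neuron markers also summed higher in every worker head than in every queen head, as given above. Most of the difference lay in NM_001011595, at 25.8, 55.6, 50.3 and 15.1 normalized counts in queen heads, against 88.1, 102, 69.0 and 118 in worker heads, while XM_006563321 overlapped between castes and had a log2 difference of -0.09 (SE 0.39).

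Foxp, a forkhead transcription factor of the nervous system, had 475, 424, 498 and 519 normalized counts in queen heads, against 853, 532, 493 and 690 in worker heads. The castes overlapped, and the log2 fold change was -0.42 (SE 0.17, adjusted p = 0.104 from edgeR), or -0.26 without 96hW replicate 1. Psq, whose *Drosophila* counterpart Pipsqueak binds GAGA sequences together with chromatin regulators, had 2642, 2007, 2029 and 1692 normalized counts in queen heads, against 2390, 2214, 2325 and 2292 in worker heads. Its log2 fold change was -0.14 (SE 0.12, adjusted p = 0.431 from edgeR), with a 95% interval of -0.42 to 0.14.

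The named splicing regulator tra2, which in *Drosophila* acts with transformer in sex determination, had 3801, 3824, 3501 and 3505 normalized counts in queen heads, against 3421, 2877, 3081 and 3093 in worker heads. In normalized counts the queen heads were all above the worker heads by a small margin, while in TPM the castes overlapped. Its log2 fold change was 0.23 (SE 0.07, adjusted p = 0.0395 from edgeR), and 0.074 on log2(TPM + 1) (adjusted p = 0.694 from limma).

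In level, the regulators stood above the typical gene, with quartiles of 25.7 and 73.0 TPM against 9.32 and 59.9 TPM over all genes. Their median was 49.3 TPM against 27.2 TPM over all genes, and 73 of them (80.2%) lay between 10 and 100 TPM, against 59.5% of all genes. None was under 1 TPM, where 7.4% of all genes were. The filter on low counts had removed 1 regulator with paired transcripts, so these shares describe expressed genes.

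**Figure D4:**
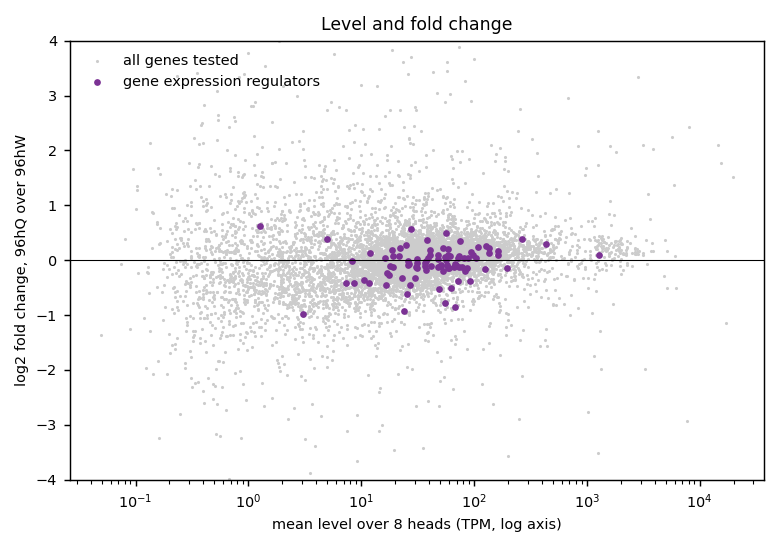
Mean level over 8 heads (TPM, log axis) and log2 fold change, 96hQ over 96hW, of the 91 regulators (purple) and all 8151 genes tested (grey). The regulators lie mostly between 10 and 100 TPM and within 2-fold, and 44 other genes lie beyond the vertical axis.

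The most abundant regulator was LOC409854, listed under developmental process, at 1253 ± 176 TPM in 96hQ and 1307 ± 153 TPM in 96hW (SD, n = 4 each). Its log2 fold change was 0.09 (SE 0.10, adjusted p = 0.535 from edgeR) and turned to -0.07 on log2(TPM + 1). After it and LOC408328 came LOC552259 at 287 ± 23 TPM in 96hQ and 244 ± 37 TPM in 96hW. LOC408918 followed at 177 ± 22 TPM in 96hQ and 219 ± 21 TPM in 96hW, and LOC409862 at 161 ± 17 TPM in 96hQ and 168 ± 22 TPM in 96hW (SD, n = 4 each). LOC552259, LOC408918 and LOC409862 overlapped between castes. The levels of LOC408918 and LOC409862, neighbours in this order, lay within their spread of each other in 96hQ, and the log2 fold change of LOC409862 was 0.10 and turned to -0.06 on log2(TPM + 1).

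The least abundant regulators tested were LOC552732, Dop1 and LOC408602. LOC552732, at a mean of 1.27 TPM over the 8 heads, had 38.7, 7.75, 19.0 and 28.8 normalized counts in queen heads, against 27.9, 8.65, 16.0 and 8.36 in worker heads. LOC408602, listed under epithelium and organ development, had 5.40 ± 0.93 TPM in 96hQ and 4.65 ± 1.14 TPM in 96hW (SD, n = 4 each). At these counts only large differences could have been seen in LOC552732, whose log2 fold change of 0.62 had a 95% interval of -0.67 to 1.92.

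Heads of the same caste differed little in most regulators. The median SD of log2 normalized counts within castes was 0.134 over the regulators and 0.172 over all genes. Low counts raise this SD, and the part of level in the difference was not tested. LOC725061 had the smallest SD, 0.036, with 4519, 4203, 4409 and 4406 normalized counts in queen heads, against 4604, 4516, 4701 and 4695 in worker heads. LOC412059 and LOC552585 were next, with SDs of 0.037 and 0.040 and log2 fold changes of -0.10 and -0.13. With the trend on length removed the fold changes of LOC725061 and LOC412059 turned to 0.053 and 0.031. LOC552585 did not overlap between castes and had an adjusted p of 0.0730 from edgeR, with a 95% interval of -0.24 to -0.02.

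LOC726375, listed under developmental process and cell development, had the largest SD, 0.902. It had 4935, 1290, 1685 and 1448 normalized counts in queen heads, against 1461, 4598, 6422 and 3541 in worker heads. Queen replicate 1 was at worker level and worker replicate 1 at queen level, and the castes overlapped. The log2 fold change was -0.78 (SE 0.55, adjusted p = 0.328 from edgeR). It was -1.44 without 96hQ replicate 1, where the adjusted p from edgeR was 0.0544, and -0.45 without 96hW replicate 3. The 2 replicate 1 heads also had the lowest fat body sums of their castes, 7778 TPM in 96hQ replicate 1 and 7623 TPM in 96hW replicate 1. The first had the highest count of this gene among queen heads and the second the lowest among worker heads. The relation to fat body thus had opposite directions in the castes, and the part of fat body in this gene was not tested.

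Single heads also stood out in the list as a whole. Of the 91 regulators, 27 were highest in 96hQ replicate 3 and 18 in 96hW replicate 1, and between 3 and 15 in each of the other heads. This was not counted over all genes, so it cannot be called particular to the regulators. The lowest TMM scaling factor was that of 96hQ replicate 3 (0.872), which raises its normalized counts, and the part of scaling was not tested. The median deviation of the regulators from their mean over 8 heads was 0.06 in 96hQ replicate 3 and between -0.07 and -0.05 in the other queen heads, and 0.07 in 96hW replicate 1 and between -0.01 and 0.00 in the other worker heads, on the log2 scale. Over all genes the median deviation was between 0.00 and 0.01 in every head. Without 96hQ replicate 3, 1 regulator was higher in 96hQ and 7 were higher in 96hW, while 774 of all genes were called (702 with all heads). Without both 96hQ replicate 3 and 96hW replicate 1, 1 was higher in 96hQ and 4 were higher in 96hW, of which 3 in all were among the 5 named above.

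Among transcripts, 270 of the regulators' transcripts were tested with all 20768 transcripts that passed the filter, and 3 passed 0.01 (1.22% of all transcripts did). At an unadjusted p under 0.05 there were 21 higher in 96hQ and 35 higher in 96hW, where 13.1% and 10.4% of all transcripts were. None of the 3 passed when any 1 library other than 96hQ replicate 3 was left out. XM_006560840 of LOC724704 was higher in 96hQ (0.891% of all transcripts were higher in 96hQ), at 2771, 2803, 3253 and 2828 normalized counts in queen heads, against 1756, 1634, 1880 and 1742 in worker heads. In log2 units the fold change was 0.73 (SE 0.08, adjusted p = 0.0048 from edgeR), while the other transcript, XM_016912999, had 312 ± 104 in 96hQ and 351 ± 145 in 96hW (SD, n = 4 each). The queen difference of LOC724704 thus lay in its main transcript.

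XM_395005 of LOC411534 and XM_006559231 of LOC408372 were higher in 96hW (0.332% of all transcripts were higher in 96hW). XM_395005 had 187, 245, 191 and 283 normalized counts in queen heads, against 674, 731, 572 and 607 in worker heads, a difference of -1.51 on the log2 scale (SE 0.16; edgeR adjusted p = 0.0052). Both other transcripts of LOC411534 also lay above in all worker heads, with log2 fold changes of -0.52 for XM_006568328 and -1.43 for XR_411173. XM_395005 held 19.0% ± 4.0 of the gene's TPM in 96hQ and 30.4% ± 3.3 in 96hW (SD, n = 4 each), and XM_006568328 held 75.6% ± 2.2 in 96hQ and 61.4% ± 3.2 in 96hW.

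XM_006559231 of LOC408372 had 330, 304, 251 and 298 normalized counts in queen heads, against 500, 615, 516 and 538 in worker heads. Its log2 fold change was -0.87 (SE 0.12, adjusted p = 0.0086 from edgeR). The main transcript of the gene, XM_006559232, had 3219 ± 479 in 96hQ and 2941 ± 126 in 96hW (SD, n = 4 each), and the log2 fold change of the gene's sum was -0.17 (SE 0.08, adjusted p = 0.162 from edgeR).

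In 45 of the 270 transcripts (16.7%, against 19.5% of all transcripts) the castes did not overlap, 15 with queen heads above (10.7% of all) and 30 with worker heads above (8.78% of all). E74 and LOC408852 had transcripts of both kinds. In LOC408852 the main transcript, XM_016912186, averaged 6482 ± 385 normalized counts over queen heads and 6077 ± 128 over worker heads, and XM_016912187 averaged 50.9 ± 23.2 over queen heads and 100.1 ± 17.8 over worker heads (SD, n = 4 each). In LOC410606, XM_016916552 had 1929, 1419, 3329 and 1666 normalized counts in queen heads, against 957, 806, 1009 and 1083 in worker heads, and made up 84.7% ± 4.2 of the gene's TPM in 96hQ and 70.8% ± 2.7 in 96hW (SD, n = 4 each). In LOC408891, XM_003250585 made up 74.1% ± 7.0 of the TPM in 96hQ and 47.4% ± 11.4 in 96hW. These shares rest on how reads were divided among similar transcripts, and that error was not measured here.

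By role, 77 of the regulators tested were also under RNA metabolic process, and 0 were higher in 96hQ and 4 higher in 96hW (5.21% and 3.4% of all genes). The share that differed lay between 4.00% and 7.14% in every role group given here, against 8.61% of all genes. The 14 others had 1 higher in 96hQ, LOC724704, and 0 higher in 96hW. Of the 49 under developmental process 3 differed (LOC724704, LOC411534 and LOC727238), with a median log2 fold change of -0.02, and of the 42 not under it 2 differed (LOC726230 and LOC552145), with a median of -0.06. Of the 25 under epithelium development LOC724704 differed, and the median was -0.10. The role groups were not tested against each other.

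The 128 regulators left out for their place in nervous system development had 99 tested, of which 1 was higher in 96hQ and 6 were higher in 96hW (7.07% in all), with a median log2 fold change of -0.10. The translation genes of the queen chromatin list, made by the study in the same way, had 48 tested, of which 7 were higher in 96hQ and 1 in 96hW (16.7% in all), with a median of 0.22. In those translation genes 68.8% did not overlap between castes, against 25.3% of the regulators. None of these differences between lists was tested.

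**Figure D5:**
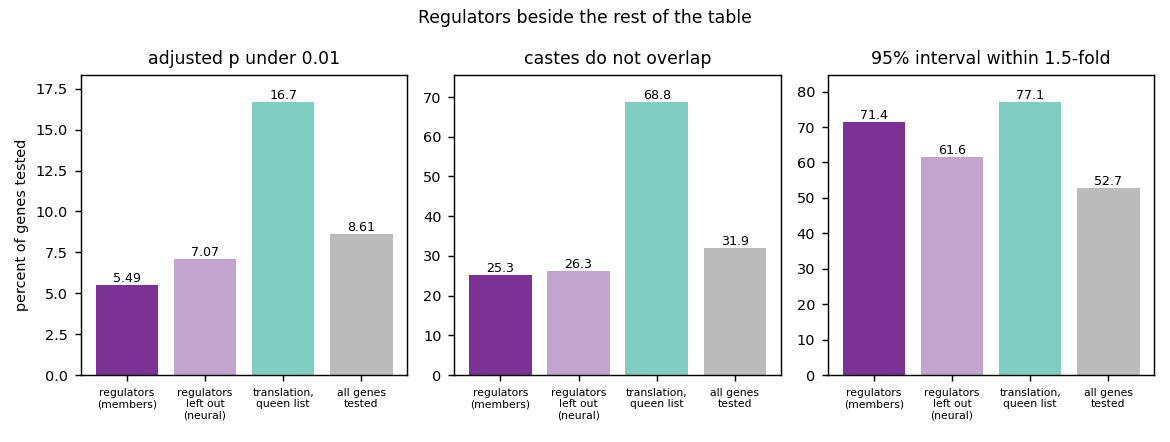
Percent of genes tested that passed an adjusted p of 0.01 in edgeR (left), whose castes did not overlap (middle) and whose 95% interval lay within 1.5-fold (right), for the 91 regulators, the 99 neural regulators left out, the 48 translation genes of the queen list and all 8151 genes. The regulators have 5.49%, 25.3% and 71.4%.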

How the data were processed

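RNA of 8 larval heads (4 96hQ, 4 96hW) was sequenced as 100 bp paired-end libraries. The authors assigned reads with kallisto (version not given in the sources used here), and the deposited estimated counts per transcript were not normalized between libraries. The TPM deposited beside them divide out transcript length and library total. The authors' methods name an Ensembl Metazoa transcript set, while the 28739 transcripts carry RefSeq accessions. Chromatin data and promoter or protein sequences were not analysed here.

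Transcripts were paired with genes by accession root through RefSeq's Amel_HAv3.1 table, used for names only (17723 transcripts, 1449 with the same version). Gene sums, rounded to whole numbers, went into edgeR 4.0.16 (R 4.3.3), with TMM, at least 5 counts in at least 4 libraries, caste as the only term, Benjamini-Hochberg adjustment, threshold 0.01. Normalized counts are TMM-scaled to the mean library total. The standard error is the fold change over the root of F. The study used sleuth, which was not run here. P-values judge the caste difference against the spread between heads of the same caste. Colonies and batches are not given. Replicate numbers were not taken to pair heads.

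Named genes were the regulators that passed, the 6 next by p, the 5 of highest and 3 of lowest TPM, those with a symbol, TET, the 3 of largest and 3 of smallest SD, and those in the study's lists of queen or worker transcripts. Others (LOC408372, LOC408852, LOC410606, LOC408891, LOC411048) were chosen after their values were seen. Regulators and lists were chosen with earlier results of these data known. Marker lists whose values are not given above were silk gland, muscle and royal jelly proteins. Silk gland summed to 5.0 to 8.7 TPM in 96hQ and 6.2 to 10.0 TPM in 96hW. Muscle summed to 1665 to 3801 TPM in 96hQ and 2355 to 4424 TPM in 96hW. Royal jelly proteins summed to 1.7 to 4.1 TPM in 96hQ and 0.15 to 0.97 TPM in 96hW. Alternatives used limma 3.58.1, DESeq2 1.42.0, other size factors, filters and thresholds, a block for replicate number, and leaving out each library. Removal of the length trend (loess) and of 96hQ replicate 3 with 96hW replicate 1 were added after seeing the data. The code was tested on simulated data.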

Additional observations from a re-analysis of the deposited data

Results flagged for a closer look

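In 52 groups of 4 heads, made of the 26 genes named in both castes, 2 groups held a head far from the other 3 by Dixon's criterion at 95%, which chance would give in about 1 of 20 groups, or 2.6 of 52, so the number is no excess. Both genes were named for their large spread within castes. In E74, 96hQ replicate 3 stood at 11786 normalized counts, and its gap to the nearest queen head was 0.92 of the group's range. In LOC726375, 96hQ replicate 1 stood at 4935 normalized counts, with a gap of 0.89 of the range, and was within the range of 3 worker heads, the other being at 1461.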

How the results depend on the processing

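The main counts were 1 regulator higher in 96hQ and 4 higher in 96hW, with a median log2 fold change of -0.053. DESeq2 gave 2 and 13, where it called 12.8% and 10.6% of all genes. An adjusted p under 0.05 in edgeR gave 3 and 13 (17.6% of regulators, against 26.9% of all genes). On log2(TPM + 1) and log2(TPM + 0.1) limma gave 0 higher in 96hQ, with medians of -0.20 and -0.20. Sums over transcripts of the same accession version gave 0 and 0 and a median of -0.17, with fewer genes tested (962 of all genes). That median was over the regulators among them, whose number is not given here, and not over the 91. The genes that passed in the main fit were not among those tested there, so these counts say nothing about them. The count of regulators with at least 1 transcript that passed, in place of the sum, was 2 in 96hW. With the trend on length removed the median was 0.058. With the replicate number as a block, edgeR called 0 regulators in each direction and 10 genes in all. Correlations of same-numbered heads were between -0.06 and 0.09, and the numbers were not taken to pair heads. Such correlations cannot exclude a shared colony or batch, which the labels do not give. With 1 library left out the counts ranged over 0 to 1 in 96hQ and 1 to 7 in 96hW, and the median over -0.092 to -0.022. Over all genes the calls then ranged over 142 to 774, against 702 with all heads. Among transcripts of the regulators, the main counts were 1 in 96hQ and 2 in 96hW. DESeq2 gave 4 and 17, log2(TPM + 1) and log2(TPM + 0.1) each gave 0 and 1, library size alone gave 0 in 96hW and no filter gave 1 in 96hW. The block gave 0 and 0, leaving out 1 library gave 0 to 1 and 0 to 2, and leaving out 96hQ replicate 3 with 96hW replicate 1 gave 0 and 0. E74 turned to -0.20 on both TPM scales, to -0.46 without 96hQ replicate 3 (range -0.46 to 0.55 with 1 library left out) and to -0.51 without that head and 96hW replicate 1. LOC409862 turned to -0.062 and LOC409854 to -0.066 on both TPM scales. The cause of these shifts was not tested. A block and a left-out library leave fewer degrees of freedom, and the part of this in the lost calls was not tested. The looser threshold passes more genes by construction. Over the 26 genes named, 477 values under alternatives were counted as kept. With an adjusted p, this meant the same direction and side of the threshold. Without one, as with the length trend removed, it meant a fold change within the gene's SD within castes of the main value. Of the others, 39 lost the call, 20 gained it, 8 turned in direction and 7 moved with the length trend. Of these 7, 2 (LOC412059 to 0.031 and LOC725061 to 0.053) turned as well. The number of heads limits the precision: 65 of the 91 regulators had 95% intervals within 1.5-fold, and the others did not.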
